A study of Mus musculus with 12 samples.

Results

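The transcripts described here encode 10 enzymes that make, phosphorylate, reduce or consume nicotinamide adenine dinucleotide (NAD): the nicotinamide riboside kinases Nmrk1 and Nmrk2, the nicotinamide phosphoribosyltransferase Nampt, the adenylyltransferase genes Nmnat1 and Nmnat3, the NAD kinases Nadk and Nadk2, the transhydrogenase Nnt, and the NAD consumers Cd38 and Parp1. They were found by gene name and are 10 of the 43686 rows of the count table. The genes were selected on their measured difference between mutant and control hearts, so its values are given for them as a description. No p-value of that difference is printed for them, and their calls at fixed thresholds are descriptions too.

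The series is RNA-seq of poly-A mRNA from the ventricular wall of 12 mice, made to compare hearts with and without Sdhaf4, an assembly factor of succinate dehydrogenase (mitochondrial complex II). The 6 control hearts (WT) carried 2 floxed Sdhaf4 alleles (Sdhaf4fl/fl) without Cre, and the 6 mutant hearts (KO, labelled Sdhaf4-/-) carried the same floxed alleles together with the Ckmm-Cre transgene. The labels give the background as C57BL/6 and the age as 2 months. The study's results text gives 6 weeks for the RNA-seq hearts. Its reporting summary names an age near that of the labels among those used for omics work. The muscle creatine kinase promoter of the transgene is active in cardiac and in skeletal muscle, so both groups share the floxed alleles and differ in the Cre transgene as well as in the deletion.

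Total counts per library ran from 23747014 to 27159228 in WT and from 26542930 to 31393393 in KO hearts. Sdhaf4 was measured at 14.3 to 30.3 CPM (the count relative to the library total, scaled by edgeR's TMM factors) in WT and at 2.25 to 2.73 CPM in KO hearts, a log2 fold change of -3.39 (SE 0.16, adjusted p = 1.95e-10, edgeR quasi-likelihood test). WT replicate 6 held the lowest WT value, and the other WT hearts held 24.1 to 30.3 CPM. Without that heart the log2 fold change was -3.51 (SE 0.09). Of the ventricular cardiomyocyte markers 9 of 10 were in the table and summed to 51330 to 56720 CPM in WT and 43770 to 60870 CPM in KO hearts. Of these 9, 5 were called lower and 1 higher in KO hearts (edgeR, adjusted p under 0.05), with a median log2 fold change of -0.30. Over all rows 25.5% were called lower and 25.6% higher. The part of the cardiomyocyte markers in the lower NAD transcripts was not tested. The 4 atrial markers summed to 1.53 to 3.07 CPM in WT and 3.03 to 4.502 CPM in KO hearts: Myl7, Sln and Bmp10 were each under 1 CPM, and Myl4 was called higher in KO hearts (log2 fold change 0.72). Fibroblast markers summed to 1105 to 1305 CPM in WT and 1595 to 2286 CPM in KO hearts. Of these 6, 5 were called higher and 1 lower in KO, beside 25.6% and 25.5% of all rows.

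NAD carries electrons from fuel oxidation to the respiratory chain and is also a substrate that signalling and DNA repair enzymes cleave, releasing nicotinamide. Most mammalian tissues rebuild it by salvage: NAMPT joins nicotinamide to a phosphoribosyl group, NMRK1 and NMRK2 phosphorylate nicotinamide riboside, and both routes give nicotinamide mononucleotide, which the NMNAT enzymes convert to NAD. NAD kinases make NADP from it, and NNT of the mitochondrial inner membrane passes hydride from NADH to NADP.

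Among the enzymes that form nicotinamide mononucleotide, Nmrk2 was about 148-fold higher in KO hearts and Nampt was at 44.8% of its WT level, whereas Nmrk1 was at 80.8%. Nmrk2, a kinase known chiefly from striated muscle, lies on chromosome 10 of the C57BL/6NJ assembly used by the table, at chr10:84711653-84715520 on the minus strand. Nmrk1, its broadly expressed paralogue, lies at chr19:17092365-17113980 on the plus strand. Their promoter windows, from 250 bases before to 50 bases after the annotated start (RefSeq, GRCm38.p6), are shown because these paralogues differed most in the comparison. The capitals mark the motif TATAAA, the letters of a TATA box.
Nmrk2: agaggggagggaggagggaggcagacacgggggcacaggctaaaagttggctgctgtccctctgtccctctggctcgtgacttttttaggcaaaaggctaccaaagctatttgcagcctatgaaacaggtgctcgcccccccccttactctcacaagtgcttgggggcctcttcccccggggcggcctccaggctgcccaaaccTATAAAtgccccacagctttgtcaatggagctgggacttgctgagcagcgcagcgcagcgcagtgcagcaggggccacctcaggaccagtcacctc
Nmrk1: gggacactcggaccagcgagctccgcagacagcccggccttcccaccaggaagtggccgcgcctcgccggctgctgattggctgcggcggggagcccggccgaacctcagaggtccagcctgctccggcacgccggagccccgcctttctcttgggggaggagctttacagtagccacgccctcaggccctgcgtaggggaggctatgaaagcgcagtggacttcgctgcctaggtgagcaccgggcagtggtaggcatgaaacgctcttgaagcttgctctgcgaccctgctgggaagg

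The Nmrk2 window, at chr10:81201988-81202287 of GRCm38.p6 on the minus strand, held TATAAA once, starting 46 bases before the transcription start, whereas the Nmrk1 window, at chr19:18631766-18632065 on the plus strand, held it on neither strand. TATAAA was found on either strand in 13.6% of all 32851 promoter windows. GGGCGG occurred once in the Nmrk2 window, at -71, and not in that of Nmrk1, against 35.7% of all windows. CANNTG, the E-box letters, occurred 2 times in the Nmrk2 window and not in that of Nmrk1, against 72.3% of all windows. CCAAT had 1 match in the Nmrk1 window, on the reverse strand, and no match in that of Nmrk2, against 37.4% of all windows. The G and C content was 60.7% for Nmrk2 and 67.3% for Nmrk1, and the median of all windows was 52.7%. Promoter entries were found for 8 of the 10 genes.

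Nmrk2 read 3.55 CPM in the lowest, 3.95 in the median and 4.80 in the highest WT heart. In KO hearts the lowest value was 291 CPM, the median 609 and the highest 814. The groups did not come near each other: every KO heart exceeded every WT heart, and the counts behind these values ran from 93 to 25325. The mean rose from 4.09 ± 0.44 to 605 ± 175 CPM (SD, n = 6 each), a log2 fold change of 7.21 with a standard error (SE) of 0.26. KO replicate 3 held the lowest KO value and stood at 43.6% of the mean of the other 5 KO hearts, 667 ± 92.5 CPM (SD, n = 5); without it the log2 fold change was 7.34 (SE 0.10). The same heart had the highest sum of ventricular cardiomyocyte markers (60870 CPM) and the lowest sum of fibroblast markers among KO hearts (1595 CPM). Whether these markers bear on its Nmrk2 level was not tested.

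Nampt, the enzyme that commits nicotinamide to salvage, ranged from 308 to 371 CPM in WT hearts with a median of 359. In KO hearts it ranged from 144 to 166 CPM with a median of 156. The groups were separated by a wide gap and the KO hearts lay close together, with a coefficient of variation of 5.01%. The log2 fold change was -1.16 (SE 0.06). In tissue RNA of this kind, fewer cells of a type and less RNA per cell cannot be told apart.

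Nmrk1 was scarce in both groups, between 5.28 and 6.31 CPM in WT (median 5.93) and between 4.497 and 4.986 CPM in KO hearts (median 4.81). The groups did not overlap, but the gap between the lowest WT and the highest KO heart was small. The log2 fold change was -0.31 (SE 0.10). The paralogues therefore stood in opposite directions in the same hearts, and the longest run of bases shared by their annotated transcripts (GENCODE vM21) was 25.

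The enzymes that complete NAD differed from each other. Nmnat1, the nuclear adenylyltransferase, read 11.8 to 15.0 CPM in WT (median 13.7) and 13.1 to 16.7 CPM in KO hearts (median 15.4). The groups overlapped, and the log2 fold change was 0.15 (SE 0.09), with an interval of 2 SE on each side from -0.02 to 0.32. Nmnat3, the adenylyltransferase assigned to mitochondria, read 9.94 to 12.8 CPM in WT (median 11.3) and 5.43 to 8.60 CPM in KO hearts (median 6.43). Every KO heart lay under every WT heart, KO replicate 5 being the highest KO heart, and the log2 fold change was -0.77 (SE 0.11), so that the KO mean was 58.8% of the WT mean as fitted.

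The NAD kinases are also a pair from different compartments. Nadk, the cytosolic enzyme, ranged from 42.8 to 52.0 CPM in WT (median 47.0) and from 40.4 to 52.4 CPM in KO hearts (median 45.1). These ranges overlapped almost entirely, with a log2 fold change of -0.06 (SE 0.07) and an interval of 2 SE on each side from -0.20 to 0.07. Nadk2, the mitochondrial enzyme, ranged from 127 to 146 CPM in WT (median 133) and from 52.7 to 61.2 CPM in KO hearts (median 58.3). Its log2 fold change was -1.23 (SE 0.05), and its groups lay far apart. This was the most negative fitted value of the 10 genes, but Nnt at -1.22 (SE 0.18) cannot be ranked apart from it.

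Nnt, the inner-membrane transhydrogenase, was the most abundant of the 10 transcripts in WT hearts by count and per length. It ranged from 1024 to 1483 CPM in WT (median 1086) and from 335 to 761 CPM in KO hearts (median 473), without overlap. Its log2 fold change was -1.22, but its SE of 0.18 was above that of Nadk2 and Nampt, and the coefficient of variation among KO hearts was 30.7%. The highest values came from WT replicate 6 and from KO replicate 2, each well apart from its group. Leaving out 1 library at a time moved the log2 fold change between -1.39, without KO replicate 2, and -1.13. The study's methods place the mice on C57BL/6J, while the table's rows are those of C57BL/6NJ. As background, the C57BL/6J substrain carries a deletion within Nnt that C57BL/6N lacks, and counts summed over the row do not tell these alleles apart.

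The consumers moved in opposite directions. Cd38, a membrane NAD glycohydrolase, read 25.9 to 31.3 CPM in WT (median 29.5) and 37.8 to 48.5 CPM in KO hearts (median 42.3). Every KO heart was above every WT heart, and the log2 fold change was 0.53 (SE 0.07), or 1.44-fold. Cd38 is expressed by immune and stromal cells as well as others, and the summed macrophage markers ran from 221 to 304 CPM in WT and from 238 to 306 CPM in KO hearts, while the fibroblast sum was higher in every KO heart. The summed endothelial markers ran from 1270 to 1429 CPM in WT and from 1331 to 1606 CPM in KO hearts, with overlap. The part of any of these cell types in the Cd38 difference was not tested.

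Parp1, the principal poly(ADP-ribose) polymerase of the DNA damage response, read 55.5 to 59.9 CPM in WT (median 58.3) and 37.8 to 49.6 CPM in KO hearts (median 40.8). No KO heart reached the WT range, and the log2 fold change was -0.46 (SE 0.06). WT hearts were tightly grouped, with a coefficient of variation of 3.12%, and KO replicate 3, the heart with the least Nmrk2 among KO hearts, had the most Parp1 among them.

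**Figure D1:**
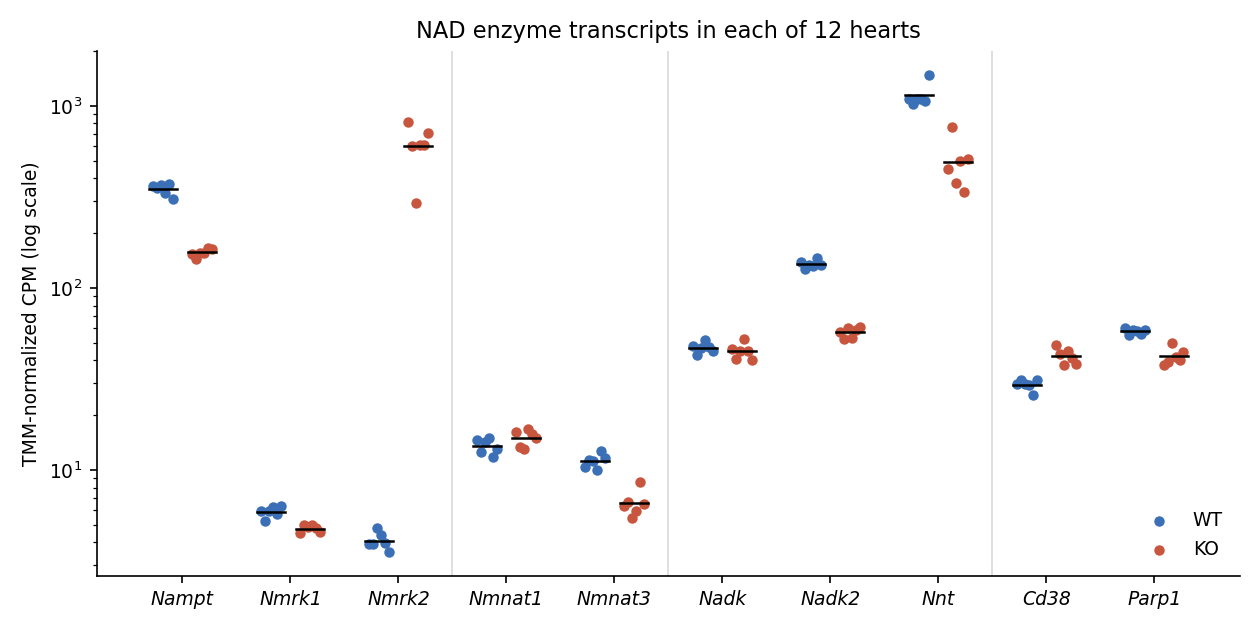
TMM-normalized CPM on a log axis of the 10 NAD enzyme transcripts in each of 6 WT and 6 KO hearts, with a black line at each group mean and vertical lines between the roles (forming the mononucleotide, completing NAD, phosphorylation and transhydrogenation, consumption). Nmrk2 moves from 3.55 to 4.80 CPM in WT to 291 to 814 CPM in KO hearts, and only Nmnat1 and Nadk overlap between genotypes.

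At an adjusted p under 0.05 over all 17155 rows tested (edgeR), 2 of the 10 were called higher in KO hearts (Nmrk2, Cd38), 6 lower (Nmrk1, Nampt, Nmnat3, Nadk2, Nnt, Parp1) and 2 were not called (Nmnat1, Nadk), where 25.6% of all rows were called higher and 25.5% lower. Under stricter thresholds (adjusted p below 0.005 and a log2 fold change beyond 1 in either direction), 1 was higher (Nmrk2) and 3 were lower (Nampt, Nadk2, Nnt), against 5.36% and 4.87% of all rows. The libraries did not overlap for 2 higher and 6 lower genes, against 14.9% and 15.2% of all rows. The median log2 fold change of the 10 was -0.38 and that of all rows 0.00. Because the genes were picked on this contrast, nothing is read from these counts. All 10 passed the filter on low counts. Rows without a gene name overlap the spans of Nmrk2, Nampt, Nmnat1, Nmnat3, Cd38 and Parp1, and no source used here says whether reads were counted by strand.

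Levels can be set against each other between genes only per length. On the authors' FPKM scale (fragments scaled by transcript length and library size), the WT order was Nnt (405 ± 67.2), Nampt (76.6 ± 4.72), Nadk2 (58.1 ± 2.31), Parp1 (55.4 ± 2.00), Nadk (33.4 ± 1.83), Cd38 (14.2 ± 1.17), Nmnat3 (10.95 ± 0.99), Nmnat1 (9.66 ± 0.89), Nmrk1 (5.21 ± 0.34) and Nmrk2 (2.22 ± 0.21), each a mean ± SD with n = 6. Nadk2 and Parp1, Cd38 and Nmnat3, and Nmnat3 and Nmnat1 overlapped in their hearts, and the other neighbours did not. Nmrk2 was thus the scarcest of the 10 in WT hearts and ranked 11196 among all annotated rows.

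In KO hearts Nmrk2 led, at 330 ± 97.9 FPKM (SD, n = 6), and ranked 284 among annotated rows. Its hearts overlapped those of Nnt (174 ± 54.1), which followed. Parp1 (40.4 ± 3.25), Nampt (34.4 ± 1.77), Nadk (32.1 ± 3.75), Nadk2 (24.7 ± 1.18) and Cd38 (20.4 ± 2.44) came next, where Nampt was not separated from Nadk nor Nadk2 from Cd38. Nmnat1 (10.7 ± 1.31), Nmnat3 (6.45 ± 1.13) and Nmrk1 (4.22 ± 0.24) were lowest and separated from each other on this scale.

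The order of the middle genes, and whether some neighbours were separated, depended on the length used. The length by which the FPKM values had been divided equalled the table's own length column for Nmrk2 and Nampt, but the column was 3.72 times as long for Parp1 and 2.25 times as long for Nadk. With CPM per kilobase of that column, Parp1 was at 14.9 ± 0.47 in WT, not separated from Nadk at 14.9 ± 0.99, and at 10.9 ± 1.12 in KO hearts, not separated from Cd38 at 12.96 ± 1.27. At the bottom of the KO order, Nmnat3 (3.11 ± 0.51) and Nmrk1 (2.83 ± 0.13) were not separated with that column. Nnt and Nampt at the top and Nmrk1 and Nmrk2 at the bottom of the WT order, and Nmrk2 at the top of the KO order, kept their places on both scales.

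Within the riboside kinase pair, Nmrk2 made up 29.8% ± 2.48 of the summed FPKM of Nmrk1 and Nmrk2 in WT (25.7% to 33.2%) and 98.6% ± 0.62 in KO hearts (97.4% to 99.1%, SD, n = 6 each). With CPM per kilobase of the length column the WT share was 38.8%, so Nmrk2 was the minor transcript in WT hearts and the major one in KO hearts on both scales. Set against Nampt, whose divisor is the same on both scales, the log2 ratio of Nmrk2 was -5.12 ± 0.14 in WT and 3.19 ± 0.52 in KO hearts. The 3 transcripts for enzymes that form the mononucleotide summed to 84.1 ± 4.49 FPKM in WT and 368 ± 98.4 FPKM in KO hearts. This sum is of transcript levels and says nothing of enzyme activity.

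The log2 ratio of Nadk2 over Nadk was 0.80 ± 0.10 in WT (0.61 to 0.90) and -0.37 ± 0.19 in KO hearts (-0.70 to -0.12) on the FPKM scale. Its difference, KO minus WT, was -1.17 whichever length was used. With the length column, however, the KO ratio was 0.01 ± 0.19, so whether Nadk2 fell under Nadk in KO hearts could not be told from these values. The log2 ratio of Nmnat3 over Nmnat1 was 0.18 ± 0.26 in WT and -0.74 ± 0.23 in KO hearts on the FPKM scale, and -0.91 ± 0.23 in KO hearts with the length column, below 0 in every KO heart on both scales. Whether the members of a pair differed in their change was not tested.

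**Figure D2:**
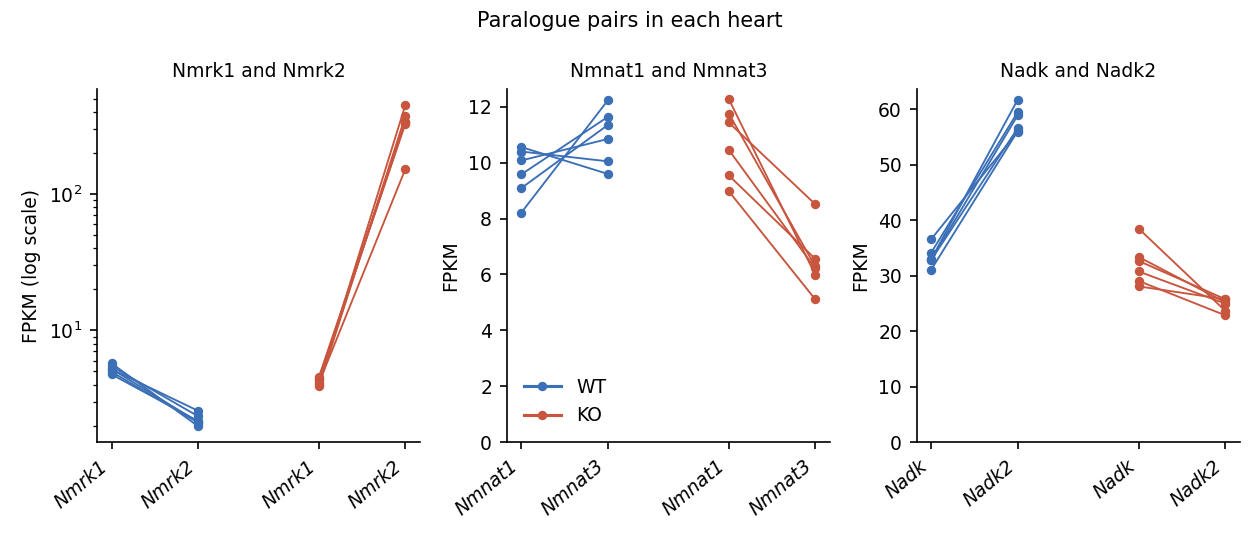
FPKM of 3 paralogue pairs, each line joining both transcripts of 1 heart (6 WT, 6 KO), with a log axis for Nmrk1 and Nmrk2 and linear axes from 0 for the others. The lines of Nmrk1 and Nmrk2 and of Nadk and Nadk2 turn from one slope in WT to the other in KO hearts; for Nadk and Nadk2 the KO slope depends on the length divisor and is near flat with the table's length column.

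Variation among hearts of 1 genotype was not used to choose the genes. Nmrk2 and Nnt varied most among KO hearts, with coefficients of variation of 28.9% and 30.7%, whereas Nmrk1, Nampt and Nadk2 stayed between 4.43% and 6.22%. The highest and lowest KO hearts were not the same for these genes. On the log2 scale KO replicate 3 lay 0.99 below the KO mean for Nmrk2, whereas for Nnt KO replicate 2 lay 0.69 above and KO replicate 5 lay 0.49 below it.

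The relation of Nmrk2 to each of the other 9 transcripts was tested across the 6 KO hearts with exact permutation tests (two-sided, log2 CPM), adjusted over 9 relations by the Benjamini-Hochberg method. None of the 9 passed an adjusted or an unadjusted p of 0.05, by Pearson's r or Spearman's rho. The smallest Pearson p was that of Parp1 (r = -0.82, exact permutation p = 0.0694, adjusted p = 0.444; rho = -0.49, p = 0.356). After leaving out KO replicates 3 and 1, the hearts farthest from the median of Nmrk2, r for Parp1 was 0.92, so its sign rested on those hearts. The smallest Spearman p was that of Nmrk1 (rho = -0.83, exact permutation p = 0.0583, adjusted p = 0.525), where r was -0.44 over all 6 and -0.94 without the 2 farthest hearts.

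**Figure D3:**
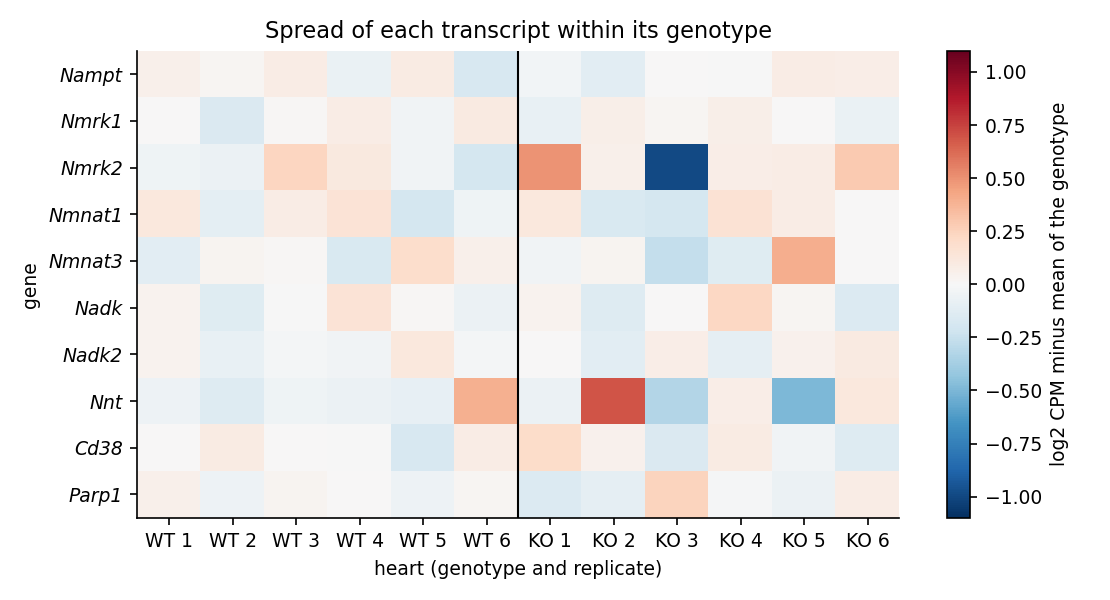
Log2 CPM of each NAD enzyme transcript minus the mean of its own genotype (colour scale), by gene (rows) and heart (columns, 6 WT and 6 KO). The strongest colours belong to Nmrk2 in KO replicate 3, at -0.99, and to Nnt in KO replicate 2, at 0.69.

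The genes whose levels followed Nmrk2 most closely over the 12 libraries, after each genotype mean was subtracted, were named from 10677 annotated rows with a mean of at least 5 CPM. The highest Pearson r belonged to Ntmt1 (0.93), Mpnd (0.93), an unnamed row, MGP_C57BL6NJ_G0019259 (0.90), Igfbp6 (0.89) and Nol3 (0.89), and the lowest to Smpd2 (-0.94), Ccdc141 (-0.94) and Gabpa (-0.93). KO replicate 3 carries the widest deviation of Nmrk2. Without it r was 0.68 for Ntmt1, 0.56 for Mpnd, 0.34 for the unnamed row, 0.32 for Igfbp6 and 0.59 for Nol3. It was -0.78 for Smpd2, -0.62 for Ccdc141 and -0.57 for Gabpa. Among the NAD enzymes r ran from 0.57 for Nmnat1 to -0.73 for Parp1, and that of Parp1 was -0.05 without KO replicate 3. The genes named first are the extremes of 10677 values over 12 libraries, and how far chance alone would reach was not tested. The libraries also share their sequencing and scaling, so these are descriptions.

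Beyond these enzymes, 64 further genes of NAD synthesis, transport and use were listed, of which 63 were in the table and 48 passed the filter on low counts. In KO hearts 6 of the 48 (12.5%) rose and 16 (33.3%) fell at an adjusted p under 0.05 (edgeR over all rows), beside 25.6% and 25.5% of all rows, and 26 were not called. The libraries did not overlap for 3 higher and 9 lower genes of the 48, beside 14.9% and 15.2% of all rows. Under the stricter thresholds 2 of the 48, Art5 and Macrod1, were lower and 0 higher, beside 4.87% and 5.36% of all rows. The median log2 fold change of the 48 was -0.04, beside 0.00 for all rows. The lists described below are small, and nothing is read from the count of each.

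In the routes that start from tryptophan or nicotinic acid, Naprt, which phosphoribosylates nicotinic acid, fell from 14.2 ± 0.50 to 7.25 ± 0.94 CPM (SD, n = 6 each). Its hearts ranged from 13.6 to 14.8 CPM in WT and from 6.09 to 8.67 CPM in KO, without overlap, and the log2 fold change was -0.97 (SE 0.09, adjusted p = 1.28e-07, edgeR). The other 3 genes tested were not called, so 1 of 4 fell (25.0%) and 0 rose, beside 25.5% and 25.6% of all rows. Nadsyn1, the NAD synthetase that completes this route, stood at 4.92 ± 1.06 and 5.01 ± 0.67 CPM. The tryptophan route was scarcely detected: Tdo2, Ido1, Ido2, Kynu, Haao, Acmsd and Qprt were too low to test.

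Among 7 genes tested for precursor release and nicotinamide clearance, 3 rose (42.9%) and 1 fell (14.3%), beside 25.6% and 25.5% of all rows. Pnp, a purine nucleoside phosphorylase that can split nicotinamide riboside, read 8.60 to 12.04 CPM in WT and 19.6 to 25.3 CPM in KO hearts, and its log2 fold change was 0.99 (SE 0.09, adjusted p = 1.18e-07, edgeR). Its span overlaps that of its near copy Pnp2 on the same strand, so the division of reads between them is uncertain. Nt5e, the ecto-5'-nucleotidase CD73, rose from 40.9 ± 5.54 to 58.3 ± 11.3 CPM with overlapping hearts (adjusted p = 0.00416, edgeR). Nt5c, a cytosolic nucleotidase, rose by 0.30 on the log2 scale with overlapping hearts (adjusted p = 0.0107, edgeR), and its span overlaps Armc7. Aox1, an aldehyde oxidase that oxidizes methylated nicotinamide, fell from 78.1 ± 8.48 to 42.8 ± 10.5 CPM (log2 fold change -0.87, SE 0.15, adjusted p = 0.000323, edgeR). Nnmt, which methylates nicotinamide, was not called at 3.69 ± 0.62 and 4.15 ± 1.04 CPM. The fibroblast markers were higher in KO hearts, as given above, and their part in the values of Nt5e and Pnp was not tested. Nmnat2, Aox3 and Cyp2e1 were too low to test.

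Of 5 transporters tested, 2 fell by small amounts and both had overlapping hearts. Slc25a51, the mitochondrial NAD carrier, went from 88.0 ± 2.61 to 77.9 ± 5.63 CPM (log2 fold change -0.17, SE 0.05, adjusted p = 0.00783, edgeR). Slc29a2, a nucleoside transporter, went from 7.24 ± 1.21 to 5.22 ± 0.95 CPM (adjusted p = 0.0105, edgeR). Slc29a1, another equilibrative nucleoside transporter, was not called, at 57.7 ± 1.94 and 57.9 ± 6.88 CPM. Slc12a8, Slc29a4 and Slc22a13 were too low to test, and Slc5a8 had no count in any library.

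The other glycohydrolases and ADP-ribosyltransferases gave 1 gene higher (5.26%), 7 lower (36.8%) and 11 not called of 19 tested. Over all rows 25.6% were called higher and 25.5% lower. Parp2, which shares the DNA damage role of Parp1, read 13.8 to 15.6 CPM in WT and 9.77 to 11.6 CPM in KO hearts (log2 fold change -0.45, SE 0.07, adjusted p = 6.61e-05, edgeR). Its log2 fold change stood beside -0.46 for Parp1, and the groups overlapped for neither. Parp3, a mono-ADP-ribosyltransferase of DNA repair, rose with overlapping hearts (log2 fold change 0.42, SE 0.11, adjusted p = 0.00361, edgeR), and its span overlaps Rrp9. The tankyrases Tnks and Tnks2 were not called, with log2 fold changes of 0.03 (SE 0.05) and -0.05 (SE 0.04).

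Art5, an arginine-specific ecto-ADP-ribosyltransferase gene, had the most negative change of the 48, from 32.9 ± 4.62 to 9.18 ± 1.91 CPM (log2 fold change -1.84, SE 0.13, adjusted p = 1.76e-08, edgeR). It overlaps Art1 on the other strand, which also fell (log2 fold change -0.53, adjusted p = 0.000403, edgeR), so reads of the pair may not be told apart. Art4 fell without overlap (log2 fold change -0.57, SE 0.08, adjusted p = 1.58e-05, edgeR). Bst1, the closest relative of Cd38, was not called at 1.17 ± 0.41 and 1.72 ± 0.61 CPM, and its span overlaps Fbxl5. Sarm1, a further NAD-cleaving enzyme, was too low to test.

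Of 9 genes tested for ADP-ribose turnover, 1 rose (11.1%) and 4 fell (44.4%), beside 25.6% and 25.5% of all rows. Macrod1, a macrodomain hydrolase found in mitochondria, ranged from 231 to 267 CPM in WT and from 88.8 to 104 CPM in KO hearts (log2 fold change -1.34, SE 0.05, adjusted p = 1.25e-11, edgeR), and its span overlaps Flrt1. Hpf1, the cofactor that directs PARP1 and PARP2 to serine, fell from 20.3 ± 1.78 to 13.6 ± 1.39 CPM (adjusted p = 1.81e-05, edgeR). Oard1 fell (log2 fold change -0.42, SE 0.09, adjusted p = 0.00071, edgeR), whereas Adprh, an ADP-ribosylarginine hydrolase, rose (log2 fold change 0.33, SE 0.05, adjusted p = 7.18e-05, edgeR), each without overlap. Parg, the main poly(ADP-ribose) glycohydrolase, was not called, with a log2 fold change of 0.05 (SE 0.07).

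Of 4 genes for NADH hydrolysis and repair, Apoa1bp (now Naxe), the epimerase that repairs hydrated NADH, rose from 46.9 ± 2.31 to 59.7 ± 3.94 CPM without overlap (adjusted p = 3.72e-05, edgeR). Its partner Carkd (now Naxd), the dehydratase, was not called at 39.2 ± 1.91 and 36.5 ± 1.02 CPM, and the span of Carkd overlaps Cars2. Nudt12, an NADH hydrolase of peroxisomes, fell with overlapping hearts (log2 fold change -0.34, SE 0.09, adjusted p = 0.00485, edgeR). Thus 1 of the 4 rose (25.0%) and 1 fell (25.0%), beside 25.6% and 25.5% of all rows.

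**Figure D4:**
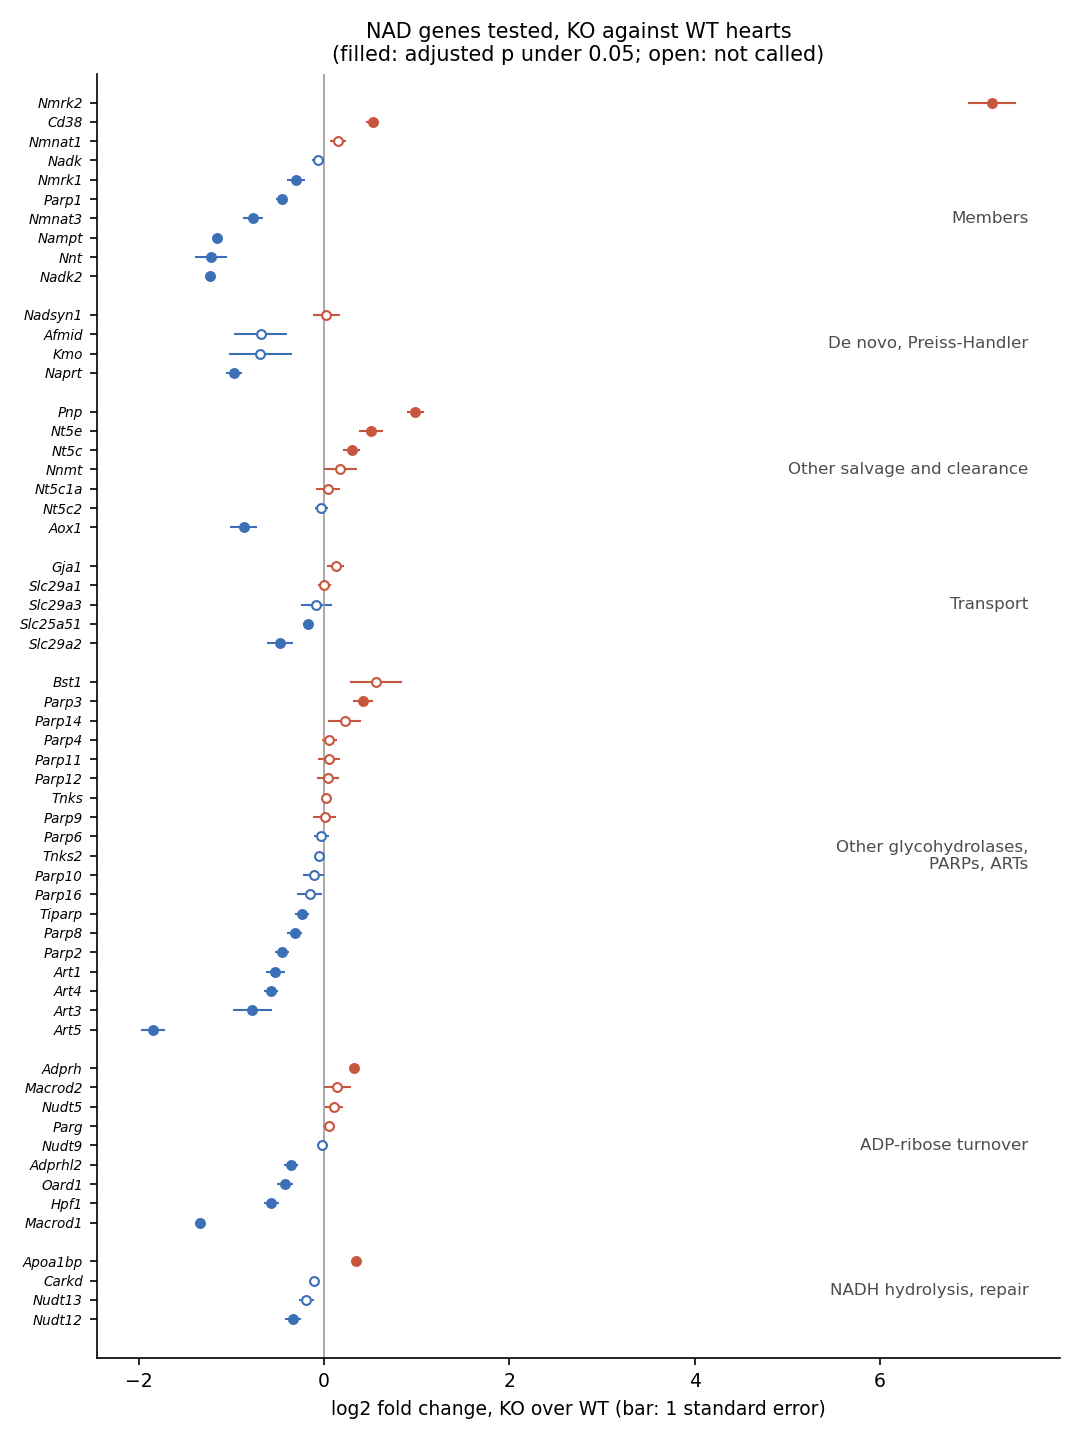
Log2 fold change of KO over WT hearts with 1 standard error for the 10 NAD enzymes selected on this contrast and the 48 other NAD genes tested, grouped by role (filled points: adjusted p under 0.05 in edgeR; open points: not called). Nmrk2 lies at 7.21, and the other genes lie between -1.84 (Art5) and 0.99 (Pnp).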

How the data were processed

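Poly-A mRNA of 12 ventricular walls (6 WT, 6 KO) was sequenced. The submitters' processing notes name HISAT2 2.0.5 and mm10, whereas the row identifiers and coordinates are those of the C57BL/6NJ assembly; what this does to the values was not tested. The authors deposited raw read counts per gene from HTSeq and FPKM values per library. The FPKM divisor was shorter than the deposited length column in most rows: both agreed within 1% in 28.6% of 12117 rows with at least 50 counts in every library. The authors' own log2 fold changes, p-values and group means were not used.

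Counts of the whole table were fitted here with edgeR 4.0.16 in R 4.3.3 (TMM, filterByExpr, robust quasi-likelihood test, no covariates), with Benjamini-Hochberg adjustment over 17155 rows. Unannotated loci are among the rows. CPM values use TMM-scaled totals; log2 CPM for the correlations used a prior count of 2, and the SE of a log2 fold change is its size over the root of edgeR's F. Correlations used exact permutation tests (scipy 1.17.1). The script was tested on simulated counts. The labels state separate samples; replicates differed by more than sampling noise, with a chi-square per degree of freedom of 7.41 or more. The counts behind a value limit its precision, and Nmrk1 rests on 126 to 165 counts per library.

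The members and lists were chosen with earlier results of these data known. Named genes are the 10 enzymes, Sdhaf4, of each further list the 3 genes with the smallest p in each direction among those called, every gene past the stricter thresholds and every gene not tested, and the 5 genes most and 3 least like Nmrk2; Nadsyn1, Nnmt, Slc29a1, Tnks, Tnks2, Art1, Bst1, Parg and Carkd were added as neighbours in the pathway after their values were seen. Adprhl1 was not analysed here. Alternatives were DESeq2 1.42.0, other scaling and filters, a replicate block and leaving out each library.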

Additional observations from a re-analysis of the deposited data

Results flagged for a closer look

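In 5 of the 56 groups of 6 hearts examined, 1 heart stood far from the other 5 relative to the range of its group; chance gives about 1 in 20 groups, or 2.8 of 56. Nnt was at 1483 CPM in WT replicate 6, where the other WT hearts ran from 1024 to 1090 CPM. Sdhaf4 was at 2.73 CPM in KO replicate 1, where the other KO hearts ran from 2.25 to 2.42 CPM. Pnp was at 8.60 CPM in WT replicate 2, below the 11.1 to 12.04 CPM of the other WT hearts. WT replicate 3 held 15.6 CPM of Parp2, and the others 13.8 to 14.4 CPM. WT replicate 5 held 27.0 CPM of Oard1, and the others 21.2 to 23.0 CPM.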

How the results depend on the processing

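The counts of 2 higher and 6 lower NAD enzymes were the same under all alternatives run, and those of the other NAD genes ran from 6 to 8 higher and from 16 to 18 lower. The number of other NAD genes tested changed with the setting, from 48 as fitted to 60 with DESeq2 (8 higher, 18 lower). Without the filter on low counts it was 62 (8 higher, 17 lower). The share of all rows called under each alternative is not given here. The enzymes were picked on this contrast, so nothing is read from the stability of their calls. Leaving out 1 library at a time gave log2 fold changes of -3.51 to -3.34 for Sdhaf4, 7.11 to 7.34 for Nmrk2 and -1.39 to -1.13 for Nnt. The share of Nmrk2 in the riboside kinase FPKM ran from 29.2% to 30.7% in WT and from 98.5% to 98.8% in KO hearts; per kilobase of the length column it was 38.8% in WT, since the FPKM divisor of Nmrk1 is shorter, and 99.1% in KO hearts. The orders and ratios by length column were added after seeing the data. No pairing by replicate number was seen, as same-numbered hearts deviated with correlations of -0.16 to 0.02, but this cannot show that none exists. With a replicate block the log2 fold change of Nmrk2 was 7.15, that of Sdhaf4 was -3.36, and the calls of the enzymes stayed at 2 higher and 6 lower. With 1 KO heart left out, 5 hearts cannot give an exact permutation p under 0.00833, so a single relation of the 9 with Nmrk2 could not pass the adjustment; Nmrk1 was at that p without KO replicate 3 (r = -0.91), and without KO replicate 6 the unadjusted exact permutation p was 0.0333 for Parp1 (r = -0.98) and 0.0417 for Cd38 (r = 0.90). At these totals 15 of the 63 other NAD genes had too few counts to test.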
